A study of Mus musculus with 947 samples.

Results

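The 4 miRNAs described here, mmu-miR-126a-3p, mmu-miR-126a-5p, mmu-miR-143-3p and mmu-miR-145a-5p, are the classic small RNAs of the vessel wall. The 4 were chosen by name, from the rows of these 4 miRNAs in the tables of an aging cohort and of a parabiosis cohort, and make up 4 of 1076 miRNAs in the first table and 4 of 795 in the second. In the study, small RNAs were sequenced from bulk mouse tissues, 947 samples in all, to ask how noncoding RNAs change with age and with exposure to the blood of a mouse of another age. The aging cohort (TMS) held 769 libraries used here, from 16 tissues and 10 ages of C57BL/6JN mice, with males and virgin females at 1 month and then every 3 months from 3 to 21 months, and males only at 24 and 27 months. The parabiosis cohort held 176 libraries from 6 tissues of 30 male mice sutured together in 15 pairs through the peritoneum for some weeks.

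A group of the aging cohort is 1 tissue at 1 age and held 1 to 6 libraries (median 5). A group of the parabiosis cohort is 1 tissue of 1 kind of partner and held 6 to 8 libraries. The heterochronic pairs, 7 in number, joined an aged mouse of 19 months (HA) to a young mouse of 4 months (HY). The isochronic pairs joined 2 aged mice of 19 months (IA, 4 pairs) or 2 young mice of 3 or 4.5 months (IY, 4 pairs). By the study's table of samples every IY mouse was C57BL/6J, every HY mouse was of a strain other than those of the IY and aged mice, and the aged mice were C57BL/6J or C57BL/6JN, while the study's summary of its animals names C57BL/6JN for the IY mice. HY and IY therefore differed in strain and in age as well as in partner, and these cannot be told apart. REJ stands for HA minus IA, ACC for HY minus IY and AGE for 21 against 3 months, as the study uses them. BAT stands for interscapular brown fat, MAT for the fat of the mesentery, and GAT and SCAT for the gonadal and subcutaneous pads. Mice of both cohorts were bled and perfused with saline before dissection.

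A miRNA is cut from a hairpin precursor, and either arm of the hairpin (5p or 3p) can be loaded into Argonaute, where bases 2 to 8 of the miRNA, the seed, pair with target mRNAs and repress them. miR-126 comes from an intron of Egfl7, a gene whose protein is secreted by endothelial cells. This miRNA is known as the endothelial miRNA that promotes signalling by vascular growth factors. miR-143 and miR-145 come from neighbouring hairpins of 1 primary transcript and are known from smooth muscle cells, pericytes and fibroblasts, where they favour the contractile state of smooth muscle. All values are bulk levels, so fewer cells of a type and less RNA per cell cannot be told apart.

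The sequence of miR-126a-3p and of its hairpin is shown because both arms of this hairpin were measured, and those of miR-126b are shown because that hairpin is the other strand of the same DNA. The seed is in capitals in the mature sequences and the 3p arm is in capitals in the hairpin.
mmu-miR-126a-3p: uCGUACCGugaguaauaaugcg
mmu-miR-126b-3p: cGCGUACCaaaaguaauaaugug
mmu-miR-126b-5p: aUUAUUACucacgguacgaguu
Mir126a: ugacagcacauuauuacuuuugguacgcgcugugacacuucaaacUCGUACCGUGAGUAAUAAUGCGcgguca
These RefSeq sequences (GRCm38.p6) place miR-126a-3p at chr2:26591402-26591423 on the plus strand, in a hairpin of 73 bases at chr2:26591357-26591429 of which it fills positions 46 to 67. The hairpin lay in an intron of 8 Egfl7 transcripts, in an exon of 1 Egfl7 transcript with a retained intron, and in an intron of 1 transcript of Gm20532. Mir126b, 58 bases long, lay wholly inside Mir126a on the minus strand and was its exact reverse complement. The seed CGUACCG of miR-126a-3p occurred in 1 of 1738 mature sequences of the reference table, as did each seed of miR-126b, so none of the 3 shared its seed with another listed miRNA. Mir143 and Mir145a lay 1301 bases apart on 1 strand. The mature sequences of miR-126a-5p, miR-143-3p and miR-145a-5p were not used here.

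In units of 1000000 mapped reads, the depth of the libraries was 2.29 to 167 in the aging cohort and 9.20 to 47.6 in the parabiosis cohort, each with a median of 20.1. Of 10 miRNAs known for 1 tissue each, 9 were highest in that tissue, and miR-192-5p, taken for kidney, was highest in small intestine and stood lower in kidney (median 13371 rpmm). By the correlation of its miRNA profile with the mean profile of each tissue, a library stood closest to another tissue in 11 of 769 cases in the aging cohort and in 3 of 176 in the parabiosis cohort, where all 3 were MAT libraries closest to GAT. The 11 included all 3 MAT libraries of 27 months, 1 MAT and 2 SCAT libraries of 9 months, and single libraries of bone at 21 and 27 months, skin at 21 months, pancreas at 3 months and SCAT at 3 months. The 4 miRNAs went with these profiles in several of them. The bone library of 21 months closest to SCAT had 11084 rpmm (reads per 1000000 mapped reads) of miR-126a-3p, against a highest level of 3216 rpmm in the other bone libraries. The SCAT library of 3 months closest to bone had 21.7 rpmm of miR-126a-5p and 50.6 rpmm of miR-145a-5p, against lowest levels of 454 and 811 rpmm in the other SCAT libraries. Values without these libraries are given beside the calls and correlations of the 4 miRNAs in the tissues that hold them.

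Libraries whose titles carry certain numbers also stood apart. Brain libraries 25 to 36 (n = 12) had 378 to 616 rpmm of miR-126a-3p (median 434), and the other 39 brain libraries had 1255 to 2949 rpmm (median 2060). The sum over all miRNAs was also lower in these 12, with a median of 199346 against 601039 rpmm, and miR-126a-3p made up 0.233% of it against 0.333%. Kidney libraries 1 to 12 (n = 9) had 1222 to 3812 rpmm of miR-126a-3p against 4273 to 12981 rpmm in the other 42, while the share of all miRNA rpmm was 1.89% against 1.92%. In both tissues the gap in rpmm was therefore mostly one of the whole miRNA sum, and fits with these title-number sets as a term are given among the alternatives.

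All 4 miRNAs were above 0 rpmm in every library of both cohorts and passed the filter on low values (1 rpmm reached in no fewer than 10% of the tissue's libraries) in every tissue. They differed far more between tissues than within them. On the log2 scale, the tissue accounted for 84.1% of the variance of miR-126a-3p, 81.8% of miR-126a-5p, 85.0% of miR-143-3p and 81.5% of miR-145a-5p, against a median of 68.9% over all miRNAs. Of the variance left within tissues, age groups took 21.3%, 25.7%, 25.7% and 24.6%, against a median of 23.8% over all miRNAs. The median over tissues of the SD between libraries of a tissue was 0.64, 0.71, 0.68 and 0.72 on the log2 scale.

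The level of miR-126a-3p, the endothelial guide strand, was highest in lung, with 10085 to 78688 rpmm (median 40168, n = 55), where it was the second most abundant miRNA and made up 7.36% of all miRNA rpmm. Heart followed with 6558 to 34655 rpmm (median 14625, n = 53), and then 3 fat depots, BAT at 1578 to 26169 rpmm (median 13116, n = 31), GAT at 5148 to 26040 rpmm (median 11469, n = 37) and SCAT at 2078 to 20126 rpmm (median 9939, n = 44). The libraries of lung overlapped with those of heart only in part. The difference of the means was 1.38 on the log2 scale, larger than the SD between libraries of lung (0.49) and of heart (0.39). Neighbours in the order of medians were compared by a 2-sided permutation test (adjusted P = 4.62e-05 here over 60 pairs, from the smallest P of 1e-05 that 100000 shuffles can give). Kidney (median 7725 rpmm), MAT (6204), limb muscle (5481) and liver (4079) came next.

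The lower end of the order was held by small intestine (median 2640 rpmm), spleen (2044), brain (1975), skin (1499), bone (1443), marrow (967 rpmm, 481 to 2390, n = 56) and pancreas (867 rpmm, 75.6 to 1645, n = 45). The median in lung was 46.3 times that in pancreas. Of the 15 neighbouring pairs in this order, 9 differed at an adjusted P under 0.05. The 6 that did not were BAT and GAT, GAT and SCAT, kidney and MAT, brain and skin, skin and bone, and marrow and pancreas, with adjusted P from 0.0608 to 0.998. The lowest pancreas value, 75.6 rpmm, came from the 3-month library closest to limb muscle, and the next lowest was 374 rpmm.

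The other arm of the hairpin, miR-126a-5p, had the same first 5 tissues at a lower level, with medians of 7443 rpmm in lung (544 to 35545), 3348 in heart, 2719 in BAT, 2518 in GAT and 2255 in SCAT. Its lowest medians were 177 rpmm in pancreas and 166 rpmm in marrow, and lung was 45 times marrow. Here 5 of 15 neighbouring pairs differed, and the run from BAT through GAT, SCAT, MAT, kidney and limb muscle to liver held no pair of neighbours that did.

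miR-143-3p had another order. MAT had 5314 to 365918 rpmm (median 182444, n = 47), which was 41% of all miRNA rpmm in the median library, and the miRNA ranked first there and in small intestine and GAT. Small intestine had 23663 to 87402 rpmm (median 51800, n = 50), GAT 13056 to 88314 rpmm (median 39973), lung 7874 to 57277 rpmm (median 35180) and SCAT a median of 32851 rpmm. MAT exceeded small intestine by 1.49 on the log2 scale (means, permutation test, adjusted P = 4.62e-05), although the lowest MAT library lay below every small intestine library. Heart (median 23632 rpmm), kidney (16325), limb muscle (11416), spleen (11388), skin (9908) and BAT (9163) formed the middle. Bone (5573), liver (3687), brain (3357), marrow (1529) and pancreas (1408 rpmm, 257 to 2913) were lowest, and MAT was 130 times pancreas. BAT thus stood near the top of the order for miR-126a-3p and in its lower part for miR-143-3p. Of 15 neighbouring pairs 8 differed, and the pairs that did not were lung and SCAT, marrow and pancreas, and each step from kidney through limb muscle, spleen, skin and BAT to bone.

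miR-145a-5p, the partner of miR-143-3p on the primary transcript, was also highest in MAT (median 11731 rpmm, 689 to 27561), followed by lung (4447), small intestine (4178), GAT (3342), SCAT (2996), kidney (2262) and heart (2066). Its lowest medians were in brain (259 rpmm), pancreas (253) and marrow (194), and MAT was 60.4 times marrow. Here 8 of 15 neighbouring pairs differed. One of the 8 was brain over pancreas, where the means went against the order of the medians (−0.45 on the log2 scale, adjusted P = 0.0237). Over the 4 miRNAs, the means of 30 of 60 neighbouring pairs differed at an adjusted P under 0.05 by this permutation test. Such a difference can be smaller than the spread between libraries. For miR-143-3p it was +0.30 between small intestine and GAT, against a median SD within tissues of 0.68.

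In the parabiosis cohort, whose table was normalized separately, the level of miR-126a-3p was highest in heart (median 17261 rpmm) and followed by GAT (10426), kidney (9259), limb muscle (6462), MAT (5097) and liver (3209). miR-143-3p did not have the excess of MAT that the aging cohort showed. Its median was 24758 rpmm in MAT (3584 to 166554), 25960 in GAT (9480 to 192066), 20872 in heart (12607 to 29919), 17854 in kidney, 14794 in limb muscle and 2195 in liver, and it made up 11.5% of miRNA rpmm in the median MAT library. The MAT libraries of this cohort were the most widely spread for this miRNA beside those of GAT, while those of heart lay close together.

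Ratios within a library do not depend on the read total. The ratio of miR-126a-3p to miR-126a-5p had medians from 3.72 in liver to 5.92 in marrow and was above 1 in all but 1 of 769 libraries, the exception being a lung library. The ratio of miR-143-3p to miR-145a-5p had medians from 3.84 in liver to 14.5 in MAT. The ratio of miR-126a-3p to miR-143-3p, an endothelial against a mural and stromal miRNA, was 0.0362 in MAT, 0.0514 in small intestine, 0.147 in skin, 0.193 in spleen, 1.07 in lung, 1.14 in liver and 1.21 in BAT (medians), so lung, liver and BAT were the tissues in which miR-126a-3p was the more abundant of the pair. In bone, GAT, kidney, MAT, small intestine and spleen it was below 1 in every library. Each of the 3 ratios differed among the 16 tissues (permutation test of any difference among tissues, P = 1e-05, the smallest that 100000 shuffles can give).

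**Figure D1:**
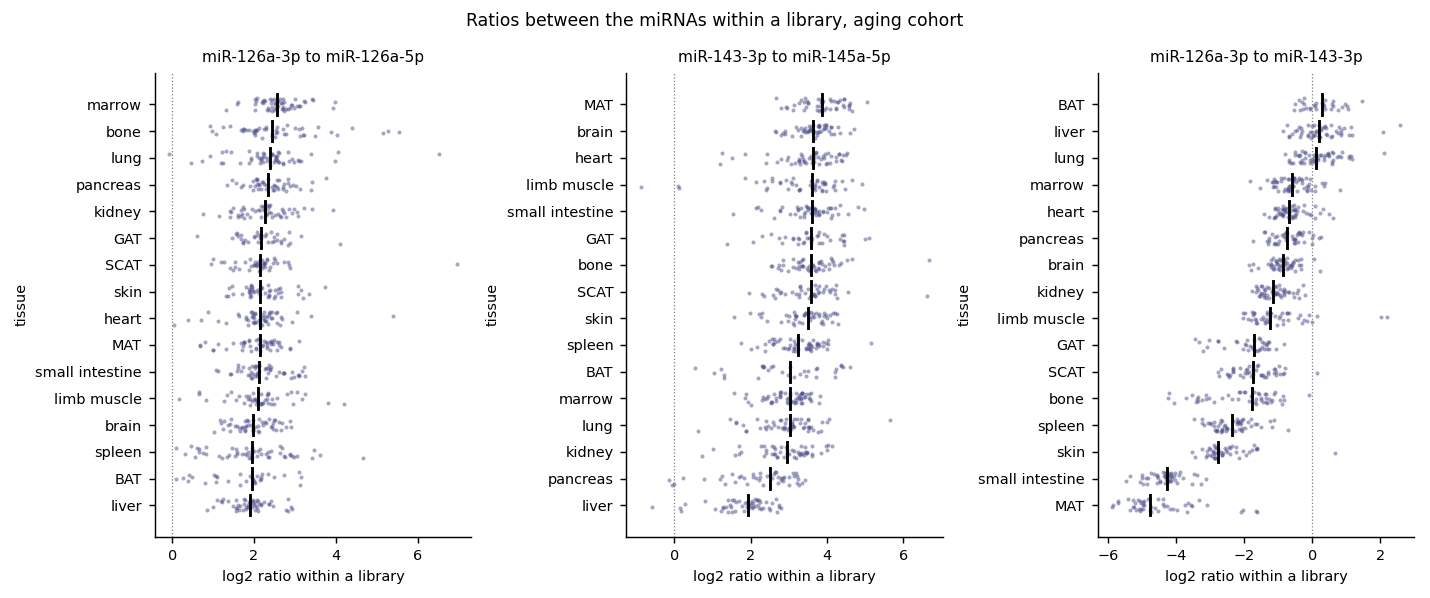
Log2 ratio of 2 miRNAs within a library (horizontal axis), in 3 panels, for the 16 tissues (rows) of the aging cohort, with a point for each library and a line at the median. The ratio of the 2 arms of miR-126a keeps to a narrow band (median ratio 3.72 to 5.92), while that of miR-126a-3p to miR-143-3p falls from 1.21 in BAT to 0.0362 in MAT.

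The likeness of the 4 profiles is given as a description only, since the points share libraries and read totals. Over the 16 tissue means of log2(rpmm + 1), Pearson's r was 0.990 between the arms of miR-126a and 0.963 between miR-143-3p and miR-145a-5p, and 0.66 to 0.73 between the 2 pairs. Among the 368 miRNAs that passed the filter in every tissue, the nearest to miR-126a-3p were miR-322-3p (r = 0.899), miR-30a-3p (0.847) and miR-30a-5p (0.832). The nearest to miR-126a-5p were miR-322-3p (0.865), let-7a-1-3p (0.839) and let-7c-2-3p (0.839). For miR-143-3p they were miR-145a-3p (0.989), miR-145b (0.921) and miR-224-5p (0.895), and for miR-145a-5p they were miR-145a-3p (0.984), miR-145b (0.978) and miR-28a-3p (0.914).

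Within tissues, after age means were removed, the pairs from 1 precursor did not stand out. The median over tissues of Spearman's rho was 0.469 between the arms of miR-126a, with a range from −0.138 to 0.877, and 104 other miRNAs had a higher median with miR-126a-3p. It was 0.389 between miR-143-3p and miR-145a-5p, with 174 others higher. miR-126a-3p was nearest to miR-22-3p (0.749), miR-24-2-5p (0.715) and miR-322-3p (0.714), and miR-126a-5p to miR-29a-5p (0.719), miR-101a-5p (0.677) and miR-152-3p (0.669). miR-143-3p was nearest to miR-199a-3p and miR-199b-3p (0.815 each, with identical values in the table) and to miR-29a-3p (0.799). miR-145a-5p was nearest to miR-326-3p (0.815), miR-345-5p (0.801) and miR-145b (0.790). The 2 less abundant members, miR-126a-5p and miR-145a-5p, went together at 0.617, above either of the pairs that share a precursor.

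The other products of these hairpins were far less abundant. miR-145a-3p, the opposite arm of miR-145a, had a median of 382 rpmm in MAT, 119 in small intestine, 113 in lung and 5.66 in marrow, and no library was at 0. miR-145b, from another locus, had 457 rpmm in MAT, 339 in lung and 7.86 in marrow, and as near-identical miR-145 products can share reads its level is uncertain. miR-143-5p reached 11.1 rpmm in MAT and was at 0 in 51 of 769 libraries. The products of the minus strand, miR-126b-3p and miR-126b-5p, reached 14 and 13.7 rpmm in BAT and were at 0 in 96 and 112 libraries.

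Age was read first as Spearman's rho between age in months and level over all libraries of a tissue, with a call at a rho past 0.5 in either direction, the limit that the study used. Of the 64 pairs of miRNA and tissue, 1 was past it, against 8.06% of all 8849 pairs of miRNA and tissue tested. That 1 was miR-126a-3p in BAT (rho = 0.503, Pearson's r = 0.425, n = 31, permutation P = 0.00468, adjusted P = 0.0308 over the miRNAs of BAT). Without the 2 libraries farthest in age from the median, r was 0.505. The level was 1814 and 5028 rpmm in the 3-month libraries, 1946, 3578 and 13232 rpmm at 9 months, 4664, 10549, 14872 and 20379 rpmm at 21 months and 15670, 16546, 19148 and 26169 rpmm at 27 months. The 27-month libraries were all above those of 3 months, but the only 1-month library, at 13244 rpmm, was not low, and libraries from 18 and 24 months had levels down to 1578 and 1689 rpmm.

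The rise in BAT was not particular to miR-126a-3p. In BAT, 80 of 526 miRNAs had a rho above 0.5, which is 15.2%, miR-126a-3p ranked 77th among them, and the median rho of all miRNAs was 0.385. The sum over all miRNAs rose with age in BAT with a rho of 0.535, and miR-126a-3p followed that sum across BAT libraries with a rho of 0.865. With the means of the sequencing plates removed, the rho of miR-126a-3p with age was 0.210, and with the means of the title-number sets removed it was 0.465. The part of the miRNA sum and of the plates in this correlation was not tested.

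At an adjusted P under 0.05, which 18% of all pairs passed, 9 of the 64 pairs had a correlation with age, all positive. In BAT these were miR-126a-3p and miR-126a-5p (rho = 0.464, r = 0.326, adjusted P = 0.0356). In bone they were miR-126a-5p (rho = 0.458, r = 0.415, adjusted P = 0.0114, n = 48) and miR-145a-5p (0.419, r = 0.421, adjusted P = 0.021). In marrow they were miR-143-3p (0.429, r = 0.442, adjusted P = 0.0125, n = 56) and miR-145a-5p (0.476, r = 0.441, adjusted P = 0.00355). The others were miR-143-3p in liver (0.391, r = 0.335, adjusted P = 0.0228) and SCAT (0.372, r = 0.394, adjusted P = 0.0469) and miR-145a-5p in heart (0.411, r = 0.370, adjusted P = 0.0226), all by permutation. Marrow and bone thus held 4 of the 9, with vessel miRNAs that were among their lowest in level.

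Without the 2 libraries farthest in age, r was between 0.287 (miR-143-3p in SCAT) and 0.400 (both in marrow) for these pairs, apart from BAT miR-126a-3p above and miR-145a-5p in bone at 0.426. With plate means removed, rho was 0.601 for miR-145a-5p and 0.476 for miR-143-3p in marrow, 0.471 and 0.405 for miR-145a-5p and miR-126a-5p in bone, 0.429 in liver, 0.358 in heart, 0.329 in SCAT and 0.163 for miR-126a-5p in BAT. In BAT both rho values were lower with plate means removed than without. Per miRNA read, rho was 0.615 and 0.541 for miR-143-3p and miR-145a-5p in marrow and 0.543 in SCAT, but 0.280 and 0.240 for miR-126a-5p and miR-145a-5p in bone, 0.221 in liver, and 0.236 and −0.0678 for miR-126a-3p and miR-126a-5p in BAT. Without the libraries closest to another tissue, rho was 0.398 and 0.389 for miR-126a-5p and miR-145a-5p in bone and 0.312 for miR-143-3p in SCAT. Over all 64 pairs, rho was above 0 in 48, in 11, 14, 9 and 14 of 16 tissues for miR-126a-3p, miR-126a-5p, miR-143-3p and miR-145a-5p. The median rho of all miRNAs was also above 0 in most tissues, with a range from −0.142 in limb muscle to 0.385 in BAT. By permutation, 20 of the 64 pairs had an unadjusted P under 0.05. The shares of all miRNAs above 0 and at that limit are not given here, so these counts have no background.

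**Figure D2:**
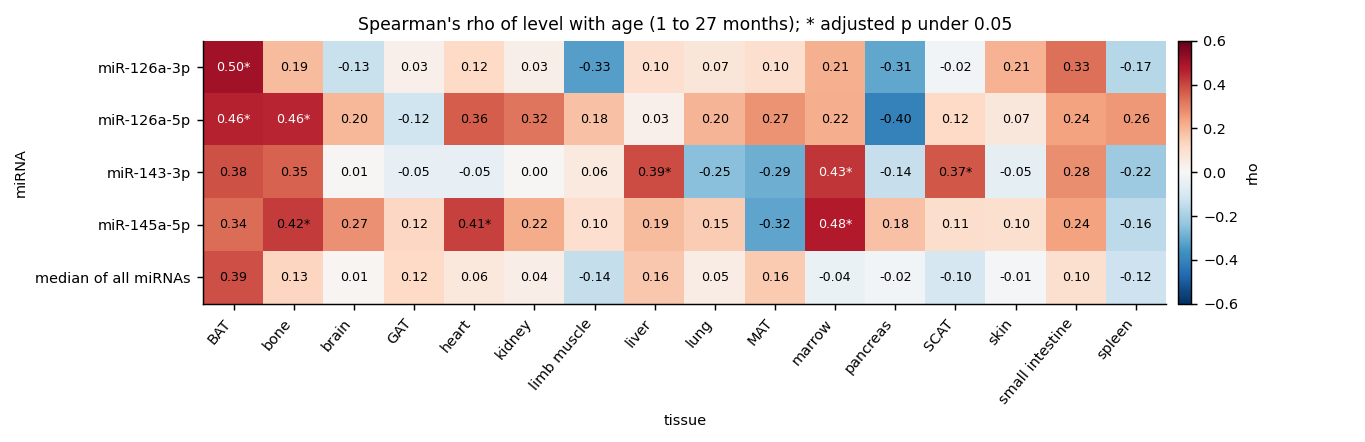
Spearman's rho between age and level (colour scale) for the 4 miRNAs and, in the last row, the median of all miRNAs, in the 16 tissues of the aging cohort, with a star at an adjusted P under 0.05. The stars stand in BAT, bone, marrow, liver, SCAT and heart, all on positive values of 0.372 to 0.503, and the median of all miRNAs is highest in BAT at 0.385.

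Each age was then compared with 3 months within a tissue by limma on log2(rpmm + 1), where fold changes are on that log2 scale and P is adjusted over all miRNAs of the tissue. At 21 months (AGE), 1 of 56 pairs was called, against 3.86% of all miRNAs. Of the 56, 39 were above 0 with a median of +0.30, where the median over tissues of the median of all miRNAs was 0.17. The share of all miRNAs above 0 is not given here. The call was miR-143-3p in small intestine, an organ with a layered wall of smooth muscle. Its level was 23663, 35546, 37752, 43130 and 50386 rpmm at 3 months and 46976 to 74382 rpmm (median 56872, n = 6) at 21 months. The groups overlapped only through the highest 3-month library. The difference was +0.63 (SE 0.21, limma adjusted P = 0.0418), in a tissue where 13.5% of miRNAs were called at this age. It was lost without any of 7 of the 11 libraries, numbers 02, 44, 49 and 56 of 21 months (+0.55 to +0.68) and 07, 24 and 29 of 3 months (+0.47 to +0.64), with adjusted P up to 0.202. At 27 months the level was 58313, 74633 and 87402 rpmm, above every 3-month library, with a limma adjusted P of 0.0708 (+0.97).

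At AGE in bone, miR-126a-5p was 93.9 to 242 rpmm (median 164, n = 6) at 3 months and 243, 406, 438, 553 and 2813 rpmm at 21 months. No 21-month library was within the range of 3 months, but the highest was the bone library closest to SCAT, and the limma adjusted P was 0.0526 (+1.88, SE 0.55) with the libraries closest to another tissue and 0.262 (+1.31) without them. In marrow, miR-143-3p was 547 to 1584 rpmm (median 1289, n = 6) at 3 months and 1483 to 2198 rpmm (median 1829, n = 6) at 21 months. These groups overlapped by a single 3-month library. The limma difference was +0.76 (SE 0.26, adjusted P = 0.155), and it passed when levels were taken per miRNA read (+0.88, adjusted P = 0.0015) or by edgeR (+0.78, adjusted P = 0.00867), but not with plates as a term (adjusted P = 0.36).

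By edgeR on the reads recovered from the rpmm values, 6 of the 56 pairs were called at AGE, all of them up, against 8.28% of all miRNAs by the same test. Beside marrow miR-143-3p they were miR-126a-5p (+1.79, adjusted P = 0.0294) and miR-145a-5p (+1.31) in bone, miR-145a-5p in limb muscle (+1.29, adjusted P = 0.0237), miR-143-3p in SCAT (+0.74, adjusted P = 0.0268) and miR-126a-5p in spleen (+1.56, adjusted P = 0.0188). The small intestine call was not among them (edgeR +0.33, adjusted P = 0.321). Without the libraries closest to another tissue, edgeR called neither miRNA in bone (+0.96, adjusted P = 0.397, and +1.00, adjusted P = 0.232), still called miR-143-3p in SCAT (+0.80, adjusted P = 0.031) and called miR-145a-5p in MAT as lower (−1.01, adjusted P = 0.0498). The change at AGE differed among the 14 tissues with enough libraries for miR-126a-5p (limma interaction of age and tissue, adjusted P = 0.0204), miR-143-3p (0.0315) and miR-145a-5p (0.0265), and the adjusted P was 0.63 for miR-126a-3p, where 25% of 368 miRNAs had an adjusted P under 0.05.

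At the ages from 6 to 18 months and at 24 months limma called none of the pairs. The number with an unadjusted P under 0.05 was 8 of 60 at 6 months, 4 of 60 at 9 months, 4 of 60 at 12 months, 12 of 60 at 15 months, 6 of 56 at 18 months and 7 of 48 at 24 months. The share of all miRNAs at an unadjusted P under 0.05 is not given here for any age, so these counts have no background. edgeR called 0, 0, 0, 2, 2 and 1 of the pairs at these ages. Over all miRNAs, limma called 1.91%, 0.997%, 0.961%, 3.05%, 2.99% and 1.4% at these ages, and edgeR called 2.2%, 2.68%, 2.2%, 4.58%, 4.99% and 3.61%. Without the libraries closest to another tissue, limma called miR-143-3p in skin at 6 months (−1.04, adjusted P = 0.038).

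At 27 months, 4 of 56 pairs were called against 7.06% of all miRNAs. Of the 56, 43 were above 0 with a median of +0.39, where the median over tissues of the median of all miRNAs was 0.14. The share of all miRNAs above 0 is not given here. All 27-month libraries were from males, while the 3-month groups of liver and MAT held both sexes. The fit had no term for sex, so age and sex were not told apart in the calls at this age. In liver, where 28.5% of miRNAs were called, miR-143-3p was 1776 to 2681 rpmm (median 2298, n = 6) at 3 months and 3522, 3931, 4035 and 6352 rpmm at 27 months. The groups did not overlap, and the difference was +0.97 (SE 0.33, limma adjusted P = 0.0249). Of 4 white blood cell markers 3 also rose in these libraries, with a summed level of 1055 to 2291 rpmm (median 1455) at 27 months against 369 to 1055 rpmm (median 677) at 3 months, and 1 of 5 striated muscle markers rose (455 against 182 rpmm). Their part in the result was not tested. The call was lost per miRNA read (+0.30, adjusted P = 0.608), with median-ratio size factors (+0.23, adjusted P = 0.757) and without any of 4 of the 10 libraries (27-month libraries 13 and 16 and 3-month libraries 14 and 35, +0.79 to +1.07 over all that were left out). edgeR did not call it. At 27 months edgeR called 4 of 56 pairs, and its share over all miRNAs is not given here. These were miR-143-3p in SCAT (+1.01, edgeR adjusted P = 0.0138) and, in MAT, miR-126a-5p (+1.09, 0.0181), miR-143-3p (−3.06, 6.16e-06) and miR-145a-5p (−2.32, 3.99e-05).

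The other 3 limma calls at 27 months were in MAT, where 35.9% of miRNAs were called and where miR-143-3p and miR-145a-5p fell while miR-126a-5p rose. miR-143-3p was 158690, 181504, 297169, 314603 and 365918 rpmm at 3 months and 30467, 43816 and 44303 rpmm at 27 months, a difference of −2.68 (SE 0.65, limma adjusted P = 0.00188). miR-145a-5p was 10720, 12521, 16591, 18075 and 22766 rpmm at 3 months and 3224, 3540 and 5763 rpmm at 27 months, a difference of −1.95 (SE 0.59, adjusted P = 0.0109). Both fell without overlap between the groups. miR-126a-5p rose from 1110, 1189, 1259, 1390 and 1548 rpmm to 1964, 3077 and 5383 rpmm (+1.31, SE 0.45, limma adjusted P = 0.0229), and miR-126a-3p, at 5917 to 9246 rpmm against 9582, 10271 and 10819 rpmm, was not called although its groups did not overlap either.

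All 3 MAT libraries of 27 months were closest to another fat, 2 to GAT and 1 to SCAT, so no value can be given without them. The MAT library of 9 months closest to GAT had a like profile, with 45358 rpmm of miR-143-3p against a median of 187069 rpmm in the MAT libraries that were not closest to another fat, and 14671 rpmm of miR-126a-3p, the highest level in MAT. A 15-month library whose profile was closest to MAT was also low in miR-143-3p, at 44477 rpmm, and the 27-month libraries were at or below it. White blood cell markers rose in 4 of 4 at 27 months (sum 12412 against 1253 rpmm, medians), pancreas markers rose in 2 of 3 (152 against 31 rpmm), striated muscle markers fell in 3 of 6 (1198 against 4806 rpmm) and markers of neurons and glia fell in 2 of 3 (198 against 801 rpmm). Of the 18 miRNAs of the vessel list below, 4 rose and 1 fell in this comparison (27.8% beside 35.9%). The one that fell was miR-490-3p, at −5.95 (limma adjusted P = 2.27e-06). The part of the piece of tissue sampled was not tested. The 2 falls were kept without any 1 library (−2.85 to −2.51 and −2.20 to −1.79), while the rise of miR-126a-5p was lost without 27-month library 31 (+1.33, adjusted P = 0.0569) or 53 (+0.93, adjusted P = 0.155). With plates as a term, miR-126a-5p (adjusted P = 0.181) and miR-145a-5p (0.167) were not called, nor was miR-145a-5p with title-number sets as a term (−1.58, adjusted P = 0.0681).

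At 1 month, 2 of 56 pairs were called against 1.76% of all miRNAs, both in MAT, where 9.64% of miRNAs were called. miR-126a-3p was 398, 5311 and 6055 rpmm at 1 month, a difference of −1.56 from 3 months (SE 0.46, limma adjusted P = 0.037), and miR-145a-5p differed by −1.80 (SE 0.59, adjusted P = 0.0446). Library 21 was low in all 4 miRNAs, with 5314 rpmm of miR-143-3p against 209846 and 278931 rpmm in the other 1-month libraries, and its sum over all miRNAs was 29660 rpmm against 451348 and 518609. Without it, the differences were −0.28 and −0.46 (limma adjusted P = 0.994 for both). Both calls were also lost without any of the 3-month libraries 01, 05, 12 and 17. Without the MAT libraries closest to another fat, which belong to other ages but enter the same fit, the adjusted P was 0.0445 for miR-126a-3p and 0.0512 for miR-145a-5p. edgeR called neither, with 0 of 56 pairs at 1 month against 1.65% of all miRNAs and 9 pairs at an unadjusted P under 0.05.

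**Figure D3:**
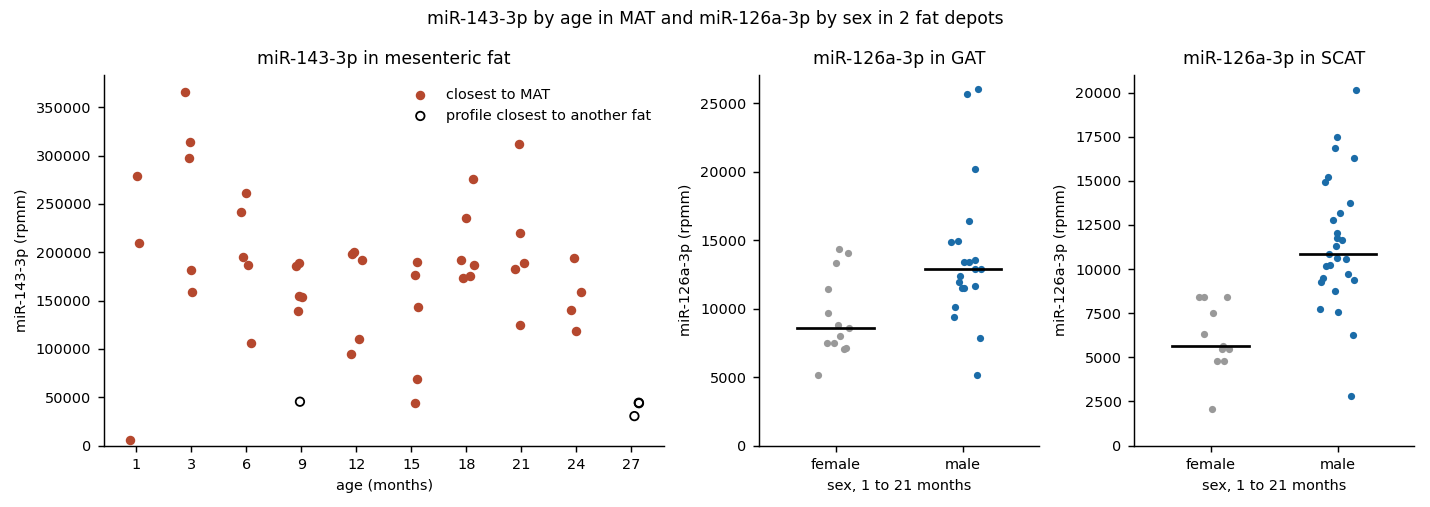
Level in rpmm of miR-143-3p in MAT by age in months, and of miR-126a-3p by sex in GAT and SCAT at 1 to 21 months, with a point for each library and a line at the median of each sex. Open circles mark MAT libraries whose profile was closest to another fat, 1 at 9 months and all 3 at 27 months, at 30467 to 45358 rpmm, and males lie above females in both depots (medians 10874 against 5629 rpmm in SCAT).

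Sex was compared over the ages that hold both, 1 to 21 months, with age as a term. Of 64 pairs 3 were called, against 4.48% of all miRNAs. miR-126a-3p was higher in males in SCAT, with 2078 to 8438 rpmm in females (median 5629, n = 11) and 2828 to 20126 rpmm in males (median 10874, n = 27), a difference of +0.93 (SE 0.23, limma adjusted P = 0.00471), where 11.8% of miRNAs were called. It was also higher in males in GAT, with 5148 to 14381 rpmm in females (median 8615, n = 13) and 5168 to 26040 rpmm in males (median 12896, n = 20), a difference of +0.58 (SE 0.19, adjusted P = 0.0495), where 9.87% were called. The difference in SCAT was smaller on other scales, at +0.56 with median-ratio size factors (limma adjusted P = 0.000625) and +0.57 per miRNA read (adjusted P = 0.00445), and +0.93 without the libraries closest to another tissue (adjusted P = 0.000328). The sexes overlapped in both depots, and the highest male libraries exceeded every female library.

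In SCAT, epithelial markers were lower in males in 5 of 5 (134 against 4393 rpmm summed, medians), 1 skin marker was lower (329 against 1858 rpmm) and 1 red blood cell marker was higher (2436 against 1320 rpmm), and in GAT 3 epithelial markers were higher in males (200 against 102 rpmm) and 3 striated muscle markers lower (853 against 1816 rpmm), with 1 marker of neurons and glia lower (100 against 244 rpmm) and 1 pancreas marker higher (35.9 against 20.2 rpmm). Their part in the results was not tested. Without the libraries closest to another tissue, SCAT also had miR-126a-5p (+1.01, adjusted P = 0.0012) and miR-145a-5p (+0.62, adjusted P = 0.039) higher in males by limma. In GAT the smooth muscle miRNA went the other way, with 24807 to 88314 rpmm of miR-143-3p in females (median 58325) and 13056 to 68600 rpmm in males (median 36632). That difference was −0.59 (limma adjusted P = 0.0654) and passed per miRNA read (−0.67, adjusted P = 0.00028) and with median-ratio size factors (−0.61, adjusted P = 0.0104).

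In skin, where 28.7% of miRNAs were called, miR-145a-5p was lower in males, with 851 to 1455 rpmm in females (median 1046, n = 13) and 247 to 1680 rpmm in males (median 701, n = 28). The difference was −0.64 (SE 0.19, limma adjusted P = 0.00776), and males spanned the whole range of females. It was −0.41 per miRNA read (limma adjusted P = 0.0168) and −0.64 without the libraries closest to another tissue (adjusted P = 0.00631). Epithelial markers were lower in males in skin for 3 miRNAs (4461 against 8018 rpmm), as were 2 white blood cell markers (1069 against 1317 rpmm) and 1 pancreas marker (43.9 against 112 rpmm), and their part was not tested.

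In the parabiosis cohort the calls of the 4 miRNAs were in heart. Between isochronic aged and young mice (IA minus IY), 1 of 24 pairs was called against 8.13% of all miRNAs. By the study's table of samples, IA and IY mice can differ in strain as well as in age, and these cannot be told apart. That was miR-143-3p in heart, with 12607 to 24246 rpmm in IA (median 18128, n = 8) and 17417 to 27892 rpmm in IY (median 25380, n = 8), a difference of −0.47 (SE 0.16, limma adjusted P = 0.0434), in a contrast that called 18.6% of miRNAs in heart. The groups overlapped through the lowest IY library and the upper IA libraries. The call was lost without any of 11 of the 30 heart libraries, the IA mice 6B, 7A, 7B, 9A and 9B and the IY mice 10B, 15B, 16A, 16B, 17A and 17B by pair number and side (−0.49 to −0.41, adjusted P up to 0.109), and with the pair as a block (adjusted P = 0.0558), and with the IY mice of 4.5 months alone (0.159).

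In the same hearts miR-145a-5p did not go with miR-143-3p. Its level was 2580 to 4066 rpmm in IA (median 2999) and 1858 to 3161 rpmm in IY (median 2259), a difference of +0.38 (limma adjusted P = 0.087), and miR-126a-5p differed by +0.30 (adjusted P = 0.113). The mean log2 ratio of miR-143-3p to miR-145a-5p within a heart library was 2.48 in IA and 3.33 in IY, a difference of −0.85 that did not pass over 72 such comparisons (exact permutation test, adjusted P = 0.0895). Per miRNA read, the heart calls were miR-126a-3p (+0.31, limma adjusted P = 0.0244), miR-126a-5p (+0.43, 0.0278) and miR-145a-5p (+0.51, 0.0184), and miR-143-3p was not called (0.0951). Which of the 4 differed between IA and IY hearts thus depended on the scaling.

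Between heterochronic partners (HA minus HY), 1 of 24 pairs was called against 9.81% of all miRNAs. This was miR-145a-5p in heart, with 2766 to 5527 rpmm in HA (median 3236, n = 7) and 1736 to 3190 rpmm in HY (median 2541, n = 7), a difference of +0.58 (SE 0.17, limma adjusted P = 0.0140), where 19.6% of miRNAs were called in heart. The 4 highest HA libraries, at 3236, 4331, 5218 and 5527 rpmm, stood above every HY library, and the other 3 overlapped with them. It was kept with the pair as a block (adjusted P = 0.0251) and lost without the HA mouse of pair 1 (+0.49, adjusted P = 0.0501). HA and HY differed in strain and age as well, and these cannot be told apart. miR-145b also rose in this contrast (+1.14, SE 0.20, limma adjusted P = 0.000717).

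Other markers moved in heart too. In IA against IY, 1 white blood cell marker (1263 against 941 rpmm summed) and 1 skin marker (46.5 against 36.1 rpmm) were higher, and 1 striated muscle marker was higher and 1 lower (183547 against 207540 rpmm). In HA against HY, 1 white blood cell marker (1334 against 971 rpmm), 2 epithelial markers (45.7 against 23.8 rpmm), 1 marker of gut and kidney epithelium (315 against 248 rpmm) and 1 skin marker (52.6 against 35.7 rpmm) were higher and 1 striated muscle marker lower (171376 against 206959 rpmm). Their part was not tested.

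REJ sets HA against IA, whose partners differed in strain as well as in age, and these cannot be told apart. REJ called 0 of 24 pairs by limma, against 0.965% of all miRNAs, and 2 of 24 by edgeR, against 4.8%. By either test 7 pairs had an unadjusted P under 0.05, and the share of all miRNAs at that limit is not given here. ACC called 0 of 24 by limma and 0 by edgeR, where the background was 0% by both, with 0 and 3 pairs at an unadjusted P under 0.05. REJ and IA minus IY share the IA libraries, and ACC and IA minus IY share the IY libraries, so their values are only set side by side. In heart the REJ differences were −0.23, +0.23, +0.10 and +0.26 for miR-126a-3p, miR-126a-5p, miR-143-3p and miR-145a-5p, and the ACC differences were +0.11, +0.18, −0.17 and +0.05.

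MAT had the largest differences without a call. miR-143-3p was 3584 to 61833 rpmm in IA (median 7599, n = 7), 13421 to 113215 rpmm in HA (median 44262, n = 6), 5952 to 50148 rpmm in HY (median 29220, n = 6) and 7183 to 166554 rpmm in IY (median 38059, n = 8). In 6 of 7 IA libraries it was at most 16271 rpmm, and in 5 of 6 HA libraries it was at least 34567 rpmm. The REJ differences for the 4 miRNAs in the order above were +1.03, +1.02, +2.18 and +1.55 (limma adjusted P = 0.203, 0.218, 0.189 and 0.189). The IA minus IY differences were −1.20, −1.13, −1.92 and −1.47 (adjusted P = 0.121 each), and with the pair as a block they passed (adjusted P = 0.0303, 0.0369, 0.0314 and 0.0363). The consensus correlation of that block was −0.28 in MAT, and a negative value lowers the SE of a difference between pairs. The pass is therefore not read as stronger evidence. Some but not all of the 4 were also called by limma without the IA library of 61833 rpmm or without the IY library of 7183 rpmm. Single libraries thus decided which were called. Without the 3 MAT libraries closest to GAT, the REJ differences were +0.86, +0.83, +2.19 and +1.57 (limma adjusted P = 0.448, 0.476, 0.448 and 0.448) and those of IA minus IY −0.90, −0.88, −1.93 and −1.45 (adjusted P = 0.367 each).

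In GAT, miR-145a-5p had a REJ difference of −0.89 (limma adjusted P = 0.0758) and passed per miRNA read (−0.88, adjusted P = 0.0245), with median-ratio size factors (−0.99, 0.035) and without the HY library of pair 14, which had 192066 rpmm of miR-143-3p. edgeR called miR-143-3p (−1.33, adjusted P = 0.0391) and miR-145a-5p (−1.06, adjusted P = 0.0144) in GAT. The IA libraries of pair 7 had 84125 and 123558 rpmm of miR-143-3p in GAT, and these 2 came from joined mice.

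**Figure D4:**
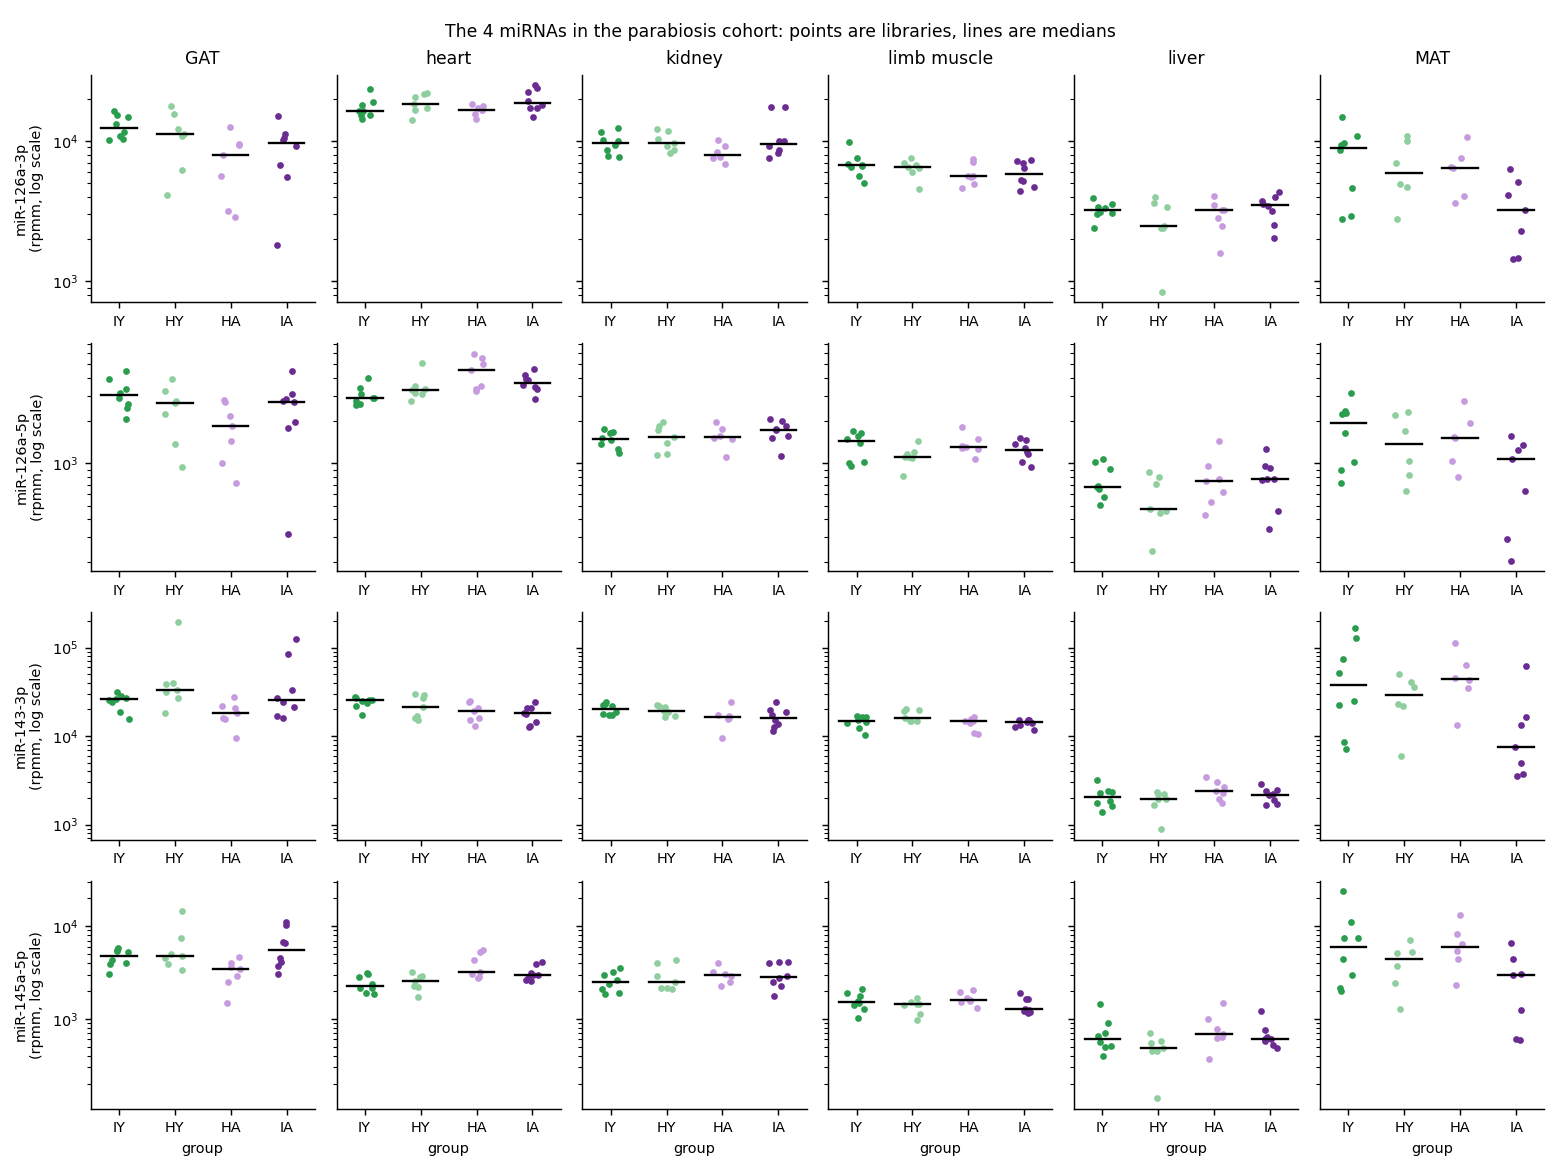
Level in rpmm (log axis) of the 4 miRNAs in the 6 tissues of the parabiosis cohort, by group (IY, HY, HA and IA), with a point for each library and a line at the median. The groups overlap in every panel, heart libraries lie close together, and MAT libraries of miR-143-3p spread from 3584 to 166554 rpmm with IA lowest at the median (7599 rpmm).

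The ratios of the members within a library did not pass in any comparison with age (0 of 48 by permutation, 12 at an unadjusted P under 0.05, smallest adjusted P = 0.0992) or between parabiosis groups (0 of 72 by exact permutation, 17 unadjusted, smallest adjusted P = 0.0895). The ratio of miR-126a-3p to miR-143-3p in SCAT had a rho of −0.42 with age.

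The other products of the hairpins were tested in the same fits. miR-145a-3p rose in small intestine at AGE (+1.24, SE 0.26, limma adjusted P = 0.00325), in liver at 21 months (+0.99, adjusted P = 0.0437) and 27 months (+1.23, adjusted P = 0.00676) and in kidney at 27 months (+1.88, adjusted P = 0.0451), and fell in MAT at 27 months (−1.77, adjusted P = 0.0115). It fell in skin at 6 months (−1.17, adjusted P = 0.0466). In kidney at 27 months the median of all miRNAs was itself +0.73. In small intestine, liver at 27 months and MAT at 27 months miR-145a-3p moved the same way as miR-143-3p, whose liver call was lost per miRNA read. Values of these other products on other scales are not given here. miR-145b fell in MAT at 1 month (−1.76, adjusted P = 0.0409) and 27 months (−1.68, adjusted P = 0.0146) and in limb muscle at 1 month (−1.64, adjusted P = 0.0192). In MAT, 9.64% of all miRNAs were called at 1 month and 35.9% at 27 months. The 1-month comparison holds library 21, and no value of miR-145b without it is given here. All 3 MAT libraries of 27 months were closest to another fat, so no fall at that age can be given without them. miR-143-5p fell in MAT at 27 months (−1.72, adjusted P = 0.0021) and was lower in male skin (−0.26, adjusted P = 0.0409). From the minus strand of Mir126a, miR-126b-5p rose in liver at 27 months (+0.72, adjusted P = 0.0287) and was higher in male marrow (+0.38, adjusted P = 0.0286).

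A list of 18 other miRNAs known from endothelium, smooth muscle, pericytes or fibroblasts gives the setting. At AGE, 8 of 245 pairs rose and 0 fell, which is 3.27% beside 3.86% of all miRNAs. Of the 8, 6 were in small intestine, where 6 of 18 rose (33.3% beside 13.5%), with a median of +0.62 against 0.22 for all miRNAs. They included miR-10b-5p (+1.21, limma adjusted P = 0.00626) and miR-497a-5p (+1.3, adjusted P = 0.00897). At 27 months, 16 of 244 rose and 1 fell (6.97% beside 7.06%), and in liver 8 of 17 rose (47.1% beside 28.5%), among them miR-199a-3p, a fibroblast miRNA (+1.44, adjusted P = 0.00162), and miR-221-3p (+1.56, adjusted P = 0.00184).

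In MAT at 1 month 8 of 18 fell (44.4% beside 9.64%), with miR-10a-5p at −2.76 (limma adjusted P = 0.0303) and miR-21a-5p at −1.91 (adjusted P = 0.037), in the comparison that holds library 21. Between the sexes 8 of 279 were higher and 3 lower in males (3.94% beside 4.48%), with miR-21a-5p in skin at +0.77 (adjusted P = 0.007), miR-139-5p in SCAT at +0.89 (adjusted P = 0.0116) and miR-92a-3p in skin at −0.63 (adjusted P = 0.0131). In heart, IA minus IY had 8 of 18 higher and 1 lower (50% beside 18.6%), with miR-214-3p at +0.78 (adjusted P = 0.0125), miR-24-3p at +0.62 (adjusted P = 0.0167) and miR-221-3p at +0.64 (adjusted P = 0.0199), in the direction opposite to that of miR-143-3p. REJ had 3 of 18 higher in GAT (16.7% beside 3.86%), namely miR-222-3p (+1.2, adjusted P = 0.0363), miR-21a-5p (+0.93, adjusted P = 0.0363) and miR-221-3p (+1.15, adjusted P = 0.0379). HA minus HY had 3 of 17 higher in kidney (17.6% beside 22.7%), led by miR-21a-5p (+1.37, adjusted P = 7.98e-05), and ACC called 0 of 105.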

How the data were processed

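Total RNA of bulk tissue was made into small RNA libraries and sequenced as single ends. The deposited values are a signal in reads per 1000000 mapped reads (rpmm), which the authors made with the miRMaster pipeline (mm 10 in the processing notes). Multiplying by the depth found from the smallest steps gave whole reads for 100.0% of the values of other RNAs and 99.0% (TMS) and 98.8% (parabiosis) of miRNA values, within 0.05 reads for values up to 1000 reads. Columns of 2 libraries that match no sample were not used.

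Levels were compared as log2(rpmm + 1), with a pseudocount of 1, for miRNAs that reached 1 rpmm in no fewer than 10% of the tissue's libraries. limma 3.58.1 (R 4.3.3, trended eBayes) was fitted per tissue, and Benjamini-Hochberg adjusted P over all its miRNAs under 0.05 was a call. Spearman's rho used 100000 shuffles. edgeR 4.0.16 (quasi-likelihood) on the recovered reads, statmod 1.5.0, Python 3.11.15, numpy 2.4.6, scipy 1.17.1 and pandas 2.3.3 were used. The fits were tested on simulated data. The members and all lists were chosen with earlier results of these data known. Named were the 4 members, their precursors' other products, the 3 miRNAs of highest r over tissues and of highest median rho within tissues per member, and up to 3 of the vessel list per contrast by smallest adjusted P. Replicates of the aging cohort are libraries whose link to a mouse across tissues is not used here.

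Alternatives were scaling by miRNA reads or median-ratio size factors, a pseudocount of 0.1, other filters (none, or a mean of 10 rpmm), edgeR, males only, plates as a term (1 liver library of 9 months has no plate here), the study's criterion, libraries left out and, added after seeing the data, title-number sets or pools as a term. Numbers of parabiosis pairs mark joined mice. The consensus correlation of the pair block was −0.16 in GAT, 0.08 in heart, 0.10 in kidney, 0.20 in limb muscle, 0.24 in liver and −0.28 in MAT. The name of the HY strain is not reported here.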

Additional observations from a re-analysis of the deposited data

Results flagged for a closer look

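In 22 of 216 groups of 4 to 10 libraries (10.2%), the highest or lowest library lay far from the others by Dixon's criterion. For normally distributed values, chance meets it in about 1 group in 20. It was applied to rpmm and not to log2 levels, so that rate need not hold here and 10.2% is not read as an excess. In the parabiosis cohort these were miR-126a-5p in heart HY (5089 rpmm, next 3525), miR-143-3p in GAT HY (192066 rpmm, next 39860) and in MAT IA (61833 rpmm, next 16271), and miR-145a-5p in GAT HY (14527 rpmm, next 7481), liver IA (1223 rpmm, next 766) and MAT IY (23800 rpmm, next 11153).

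For miR-126a-3p the high libraries were in bone at 21 months (11084 rpmm, next 2780, the library closest to SCAT), GAT at 3 months (20202 rpmm, next 11675), heart at 3 months (34655 rpmm, next 16355), liver at 21 months (9202 rpmm, next 4535) and marrow at 3 months (2390 rpmm, next 1067). The low libraries were in brain at 21 months (378 rpmm, next 1697) and spleen at 21 months (662 rpmm, next 1767).

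For miR-126a-5p the high libraries were in bone at 21 months (2813 rpmm, next 553), limb muscle at 21 months (3723 rpmm, next 1487) and 3 months (2374 rpmm, next 1472), lung at 3 months (19070 rpmm, next 10368) and pancreas at 21 months (243 rpmm, next 96.6), and the low libraries in marrow at 21 months (102 rpmm, next 191) and pancreas at 3 months (17.7 rpmm, next 192). For miR-145a-5p they were in liver at 21 months (2320 rpmm, next 1207) and MAT at 21 months (14439 rpmm, next 8735), both high.

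The change from 3 to 21 months differed among the 14 tissues for miR-126a-5p (limma, adjusted P = 0.0204), miR-143-3p (adjusted P = 0.0315) and miR-145a-5p (adjusted P = 0.0265).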

How the results depend on the processing

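Of 142 named values under other settings (single libraries left out aside), 97 kept their direction and side of the threshold, 12 newly passed, 31 no longer passed and 2 changed sign. The sign changed for the rho of miR-126a-5p with age in BAT, at −0.229 with median-ratio size factors and −0.0678 per miRNA read. Of 89 counts, 52 stayed within 1.5 times, 25 were higher and 12 lower. Outside edgeR, the share of all miRNAs called under the same setting is not given here. A change in the counts of this section is therefore not read as particular to the 4 miRNAs. In the interaction of age and tissue, limma called 92 of 368 miRNAs as reported and 175 per miRNA read. Counts of called pairs were, per miRNA read, 3 at AGE (1 as reported), 10 at other ages (4), 0 at 1 month (2), 1 for REJ (0), 3 for IA minus IY (1 lower as reported, all 3 higher here) and 4 for rho (1). With median-ratio size factors they were 7 at other ages, 1 at 1 month, 5 for sex (3), 1 for REJ and 3 for rho. A pseudocount of 0.1 gave 2 at AGE. No filter gave 0 at AGE and 0 for IA minus IY. Males only gave 0 at AGE and 3 for rho. edgeR gave 6 at AGE, 5 without libraries nearest to another tissue (added after seeing the data), and 2 for REJ.

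Plates as a term gave 0 at AGE, 11 at other ages and 0 at 1 month. With libraries of a profile nearest to another tissue left out, counts were 2 at other ages, 1 at 1 month and 5 for sex, and MAT at 27 months had none left. The study's criterion (unadjusted P and a 1.5-fold change) gave 13 at AGE, 6 for REJ, 4 for IA minus IY and 4 for HA minus HY, and an adjusted-P call gave 9 for rho. For IA minus IY, IY mice of 4.5 months alone gave 0. Chosen after seeing the data were title-number sets as a term, with 2 at AGE, 13 at other ages, 0 at 1 month and 2 for rho, and sequencing pools as a term, with 0 for IA minus IY. Leaving out single libraries at ages other than 21 months, and libraries nearest to another tissue for the parabiosis contrasts, tissue levels and ratios, was also chosen then.

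With the pair as a block, IA minus IY called 4 pairs in place of 1 (the 4 members in MAT, with miR-143-3p in heart lost), and the block changed no count of the other contrasts by over 1.5 times. The consensus correlation in MAT was negative (−0.28), which lowers the SE of this contrast. The aging cohort has no such pairing, since the labels do not link libraries of its tissues to mice.

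Leaving out each library in turn gave 0 to 4 calls at AGE (4 without bone 31 of 21 months, 3 without kidney 23 or 47 of 3 months, 2 without bone 13 of 3 months or liver 17 of 21 months), 0 to 1 for REJ (1 without GAT HY 14B), 0 for ACC, 0 to 4 for IA minus IY (4 without MAT IA 7B or MAT IY 16A, 2 without heart IY 10A) and 0 to 2 for HA minus HY (2 without heart HA 11A or 12A or HY 5B). The named differences ranged from 0.47 to 0.74 (miR-143-3p, small intestine, AGE), 0.79 to 1.07 (miR-143-3p, liver, 27 months), 0.93 to 1.66 (miR-126a-5p, MAT, 27 months), −2.85 to −2.51 and −2.20 to −1.79 (miR-143-3p and miR-145a-5p, MAT, 27 months), −2.25 to −0.28 and −2.50 to −0.46 (miR-126a-3p and miR-145a-5p, MAT, 1 month), −0.54 to −0.41 (miR-143-3p, heart, IA minus IY) and 0.49 to 0.66 (miR-145a-5p, heart, HA minus HY). A count for IA minus IY without a MAT library keeps the call of miR-143-3p in heart. The cause of these changes was not tested. The members were above 0 in every library.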
